A study of Mus musculus with 2 samples.

Results

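The genes described here are 10 cytokine genes known to support immune cells from the stroma: Il33, Il6, Il11, Lif, Il34, Csf1, Tslp, Il7, Il15 and Tnfsf13b. They were taken as a named list, and all 10 were found among the 31053 genes of both count matrices. The matrices hold single-cell RNA-seq of intestinal lamina propria cells from C57BL/6 mice, labelled 11 weeks old. The ApcMin library came from ApcMin/+ mice with intact Lef1 (Lef1 +/+), and the VApcMinL library from ApcMin/+;Lef1 fl/fl mice that carry Villin-Cre. Both groups therefore carry the Min allele of Apc. Villin-Cre is known to act in the intestinal epithelium. Lef1 had 105 UMIs over all ApcMin cells and 110 UMIs over all VApcMinL cells, immune and epithelial-like cells included, and deletion of Lef1 in the stromal cells was not measured here. Each genotype has 1 library, the number of mice behind it is not given in the sources used here, and a difference of genotype cannot be told apart from one of mice or of dissection. For this reason no test and no p-value is given.

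Stromal cells of the gut wall are fibroblasts, mural cells, endothelial cells and glia, and their cytokines act on lymphocytes and myeloid cells next to them. IL-33 is held in the nucleus and released by damaged cells to act on innate lymphoid cells, regulatory T cells and mast cells through ST2. IL-6, IL-11 and LIF share the signal chain gp130. IL-34 and CSF1 are both ligands of the macrophage receptor CSF1R, TSLP acts on dendritic and lymphoid cells, IL-7 and IL-15 keep T cells, innate lymphoid cells and NK cells alive, and BAFF, the product of Tnfsf13b, does so for B cells.

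The cells had been sorted as negative for DAPI, Ter119, EpCAM and CD45 after EDTA and Liberase TL digestion. The libraries held 93203061 and 101609269 unique molecular identifiers (UMIs, 1 per captured RNA molecule) in ApcMin and VApcMinL, in this order here and below. Barcodes with at least 3000 UMIs numbered 6674 and 7100, of which 75 and 531 had over 20% mitochondrial UMIs. After doublets were left out, 6251 and 6224 cells remained, with a median of 10709 and 8932 UMIs, and the libraries had 18 barcodes in common. Clusters were named from marker genes, and none of the 10 cytokine genes or their receptors was used for the clustering. Fibroblast-like cells numbered 3193 (51.1%) and 3564 (57.3%). They fell into clusters led by Pi16 (1173 and 881 cells), Lpl and Penk (862 and 692), Grem1 and Ackr4 (538 and 701), Adamdec1 (466 and 1121), Bmp5 and Bmp7 (29 and 70) and Scg2 (125 and 99). The other stromal clusters were blood endothelial-like (102 and 453 cells), lymphatic endothelial-like (33 and 153), glial-like (23 and 160), mural-like (35 and 45) and mesothelial-like (7 and 35). In spite of the sort, B-like, plasma-like, T or innate lymphoid-like and myeloid-like cells were found, as were 1362 and 358 erythroid-like and 26 and 280 epithelial-like cells. The myeloid-like cluster was led by the mast cell protease genes Mcpt2 and Mcpt1 beside C1qa, C1qb and C1qc.

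Levels are CPM, the UMIs of a gene per 1e+06 UMIs of all cells of a cluster, given with the exact 95% Poisson interval of the count. A ratio is VApcMinL over ApcMin, with the exact 95% interval of the 2 counts. Both cover counting error only, not the spread between mice. The reads come from the 3′ end of RNA, so a level is compared between cells of the same gene, not between genes.

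For 8 of the 10 genes, most UMIs in these sorted cells lay in fibroblast-like cells. Of all UMIs of such a gene, fibroblast-like cells held 93.0% to 98.3% in ApcMin and 81.9% to 97.6% in VApcMinL. The exceptions were Il7, with 67.7% and 37.2%, and Il15, with 77.7% and 42.8%. For Il7 the lymphatic endothelial-like cluster held 25.6% and 49.8% of the UMIs, and for Il15 the epithelial-like cluster held 6.28% and 43.1%. These shares also depend on how many cells of each kind a library holds. Of the UMIs of all genes, fibroblast-like cells held 43968029 of 72100351 in ApcMin and 39533528 of 69813517 in VApcMinL. In VApcMinL the shares of Il7 and Il15 were below that share of all genes. By the mean level of the libraries, the highest cluster was fibroblast-like for 6 genes (Il6, Il11, Lif, Csf1, Tslp, Tnfsf13b), lymphatic endothelial-like for Il33 and Il7, mural-like for Il34 and epithelial-like for Il15.

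**Figure D1:**
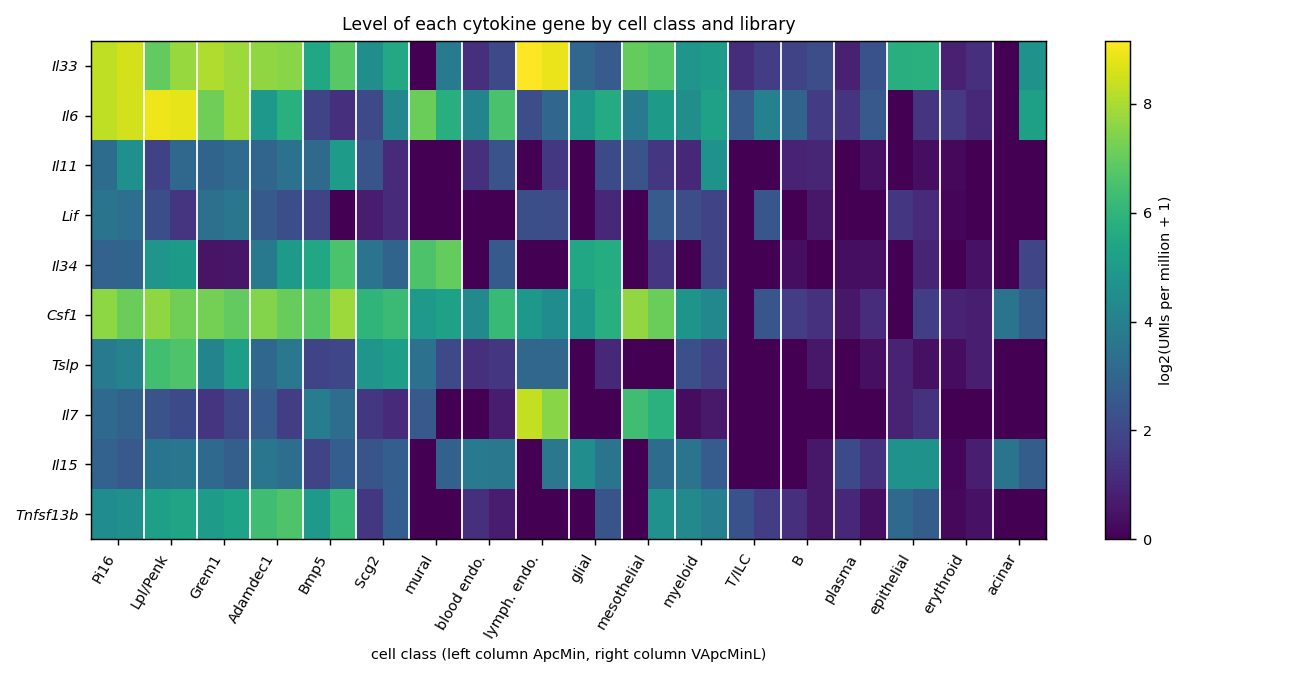
Level of each of the 10 cytokine genes (rows) in each of the 18 clusters (columns in pairs, ApcMin left and VApcMinL right), as log2(CPM + 1). Fibroblast clusters carry most genes at a high level, Il7 and Il33 stand out in lymphatic endothelial-like cells, and the B-like, plasma-like and erythroid-like columns are near the bottom of the scale.

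The level that free RNA can give was read from cells that should lack these transcripts and from empty droplets. In B-like, plasma-like and erythroid-like cells no member was above 6.80 CPM, and the highest share of cells with a UMI was 3.72% (Il6, B-like, ApcMin), at a median of 4849 UMIs per B-like cell against 13301 per fibroblast-like cell. In T or innate lymphoid-like cells the highest value was 15.4 CPM, from 7 Il6 UMIs in VApcMinL. In empty droplets Il6 stood at 104 and 76.6 CPM and Il33 at 48.4 and 57.2 CPM, and the other 8 genes between 0.553 and 38.6 CPM. From immunoglobulin UMIs, free RNA was put at 3.75% and 3.85% of the UMIs of fibroblast-like cells, so that it adds at most 3.90 CPM to any member there.

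Il33 (chr19:29925114-29960718, GRCm38, as for all positions here), the ST2 ligand, had its highest level in lymphatic endothelial-like cells. The level was 572 CPM (486 to 668) in ApcMin and 469 CPM (430.2 to 511) in VApcMinL, with a UMI in 28 of 33 and 126 of 153 cells. Blood endothelial-like cells were close to 0, at 1.40 and 3.07 CPM from 1 and 9 UMIs. Among fibroblasts, the Pi16 cluster led with 309.9 CPM (302 to 318) and 379 CPM (368 to 390.2). The Grem1 cluster followed with 265 and 227 CPM, and the Adamdec1 cluster had 201 and 186 CPM. The Lpl cluster was the one of these 4 whose level differed most between the libraries, with 125 CPM (118 to 132) and 215 CPM (204 to 227), a ratio of 1.72 (1.60 to 1.86). The Bmp5 and Scg2 clusters were low, at 42.9 and 113 CPM and at 21.9 and 45.1 CPM. Mesothelial-like cells had 126 and 109 CPM, with intervals that overlapped. Il33 was also read in epithelial-like cells, at 53.2 and 55.0 CPM.

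The lymphatic value was as large without the 0 and 5 cells that had a UMI of the fibroblast gene Pdgfra. Il33 in lymphatic endothelial-like cells was then at 572 and 464 CPM. In the myeloid-like cluster Il33 stood at 26.6 and 31.6 CPM, but at 1.85 and 7.01 CPM once the 18 and 49 cells with an Epcam UMI were left out.

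Il7 (chr3:7569994-7613760), the survival factor of T cells and innate lymphoid cells, had its highest level in the lymphatic endothelium. Lymphatic endothelial-like cells had 320.0 CPM (257 to 394) and 182 CPM (158 to 209). The intervals did not overlap, and the ratio was 0.569 (0.442 to 0.738). In the same cells the summed level of 14 genes known to respond to tissue dissociation was 2366 and 7074 CPM, with 13 of the 14 over 2-fold higher in VApcMinL, and their part in the Il7 and Il33 levels was not tested. Mesothelial-like cells came next with 81.6 CPM (49.9 to 126) and 56.3 CPM (38.8 to 79.1), from 20 and 33 UMIs. In fibroblast-like cells as a whole Il7 was at 5.34 and 3.90 CPM, and blood endothelial-like cells had 0 UMIs and 2 UMIs. Where a cell had an Il33 UMI, an Il7 UMI was found in 24 of 28 lymphatic endothelial-like cells of ApcMin and in 87 of 126 of VApcMinL. In the lymphatic cells without an Il33 UMI, the shares with an Il7 UMI were 60.0% and 74.1%, against 85.7% and 69.0% of those with one. The cells with an Il33 UMI were the deeper ones, with a median of 8350 against 5824 UMIs in ApcMin and 6647 against 4778 in VApcMinL.

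**Figure D2:**
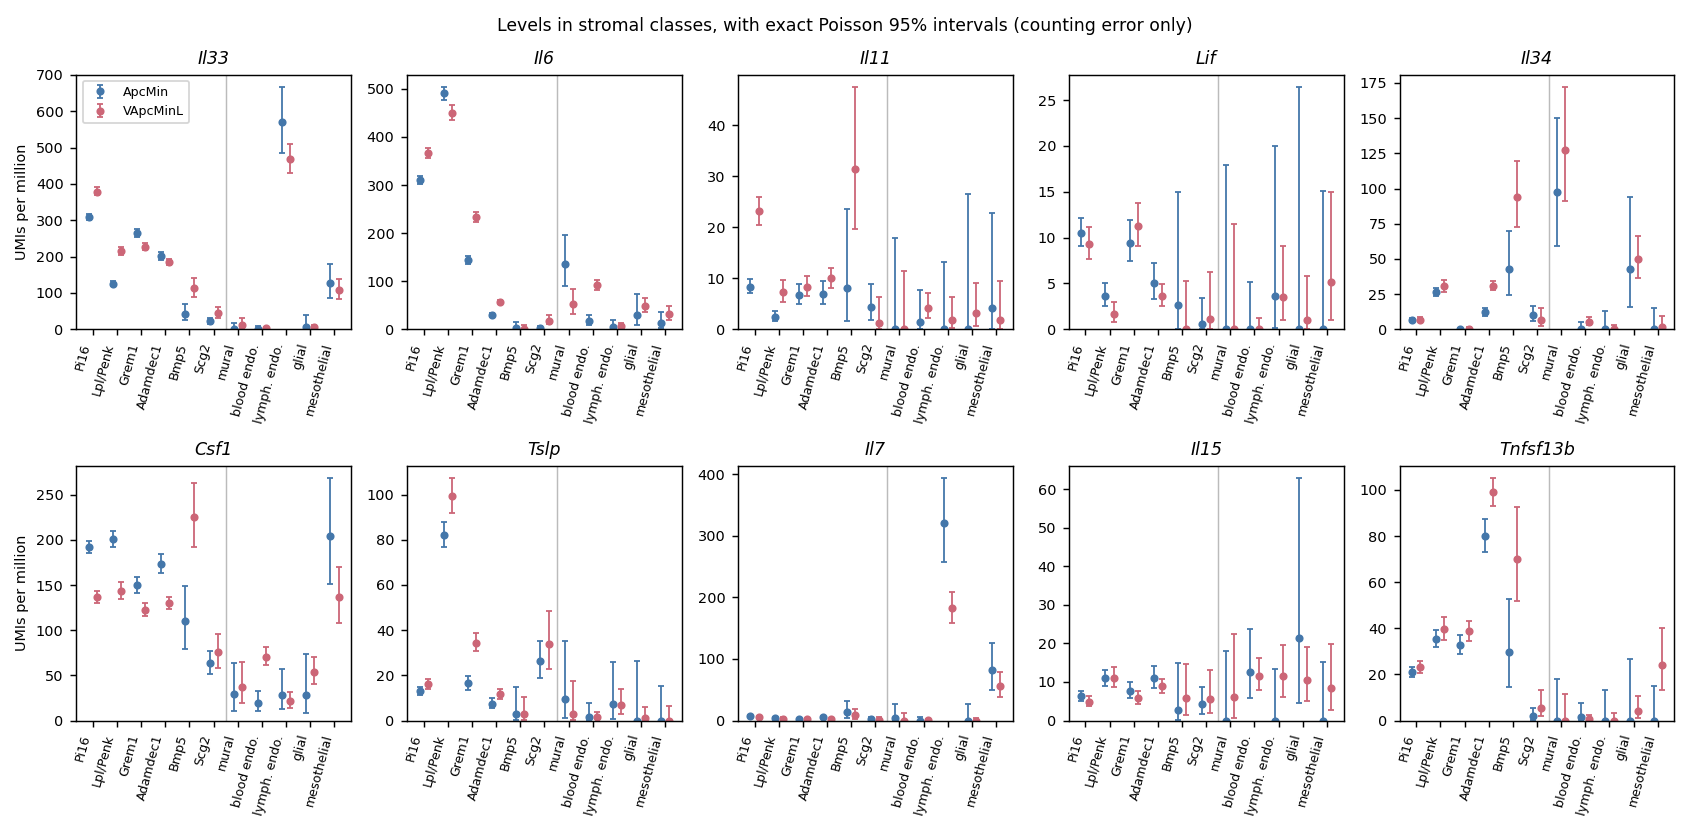
Level in CPM (vertical axis, from 0, its own scale for each gene) in the 6 fibroblast clusters (left of the grey line) and 5 other stromal clusters, for ApcMin (blue) and VApcMinL (red), with exact 95% Poisson intervals. Each gene has its own order of clusters: Il6 and Tslp peak in the Lpl cluster, Tnfsf13b in the Adamdec1 cluster, Il34 in mural-like cells and Il7 in lymphatic endothelial-like cells.

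Il6 (chr5:30013114-30019981) had its highest level in the Lpl cluster of fibroblasts. The level was 491 CPM (478 to 505) in ApcMin and 451 CPM (435 to 467) in VApcMinL, a ratio of 0.918 (0.877 to 0.960). The Pi16 cluster had 311 CPM (303 to 319) and 367 CPM (356 to 378), and the Grem1 cluster 144 CPM (136 to 153) and 233 CPM (223 to 243). From the Adamdec1 cluster on, Il6 was far lower, with 28.6 and 55.9 CPM, and the Bmp5 cluster had 2.68 and 1.43 CPM. Within fibroblasts the order of Lpl, Pi16, Grem1 and Adamdec1 was the same in both libraries, with no overlap between neighbours. The ratio was above 1 in the Pi16 (1.18), Grem1 (1.61) and Adamdec1 (1.95, 1.64 to 2.33) clusters and below 1 in the Lpl cluster. Over all fibroblast-like cells it was 0.928 (0.904 to 0.953).

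Il6 was unevenly spread among cells. In the Lpl cluster 414 of 862 and 274 of 692 cells had an Il6 UMI, and the 10 cells with most UMIs held 18.0% and 22.0% of the total. In mural-like cells the 28 Il6 UMIs of ApcMin came from 5 cells. Among the 47 UMIs of VApcMinL glial-like cells, 93.6% came from 10 cells.

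Blood endothelial-like cells showed the largest Il6 difference between the libraries among the clusters that could be compared. ApcMin had 16.7 CPM (8.65 to 29.2), with a UMI in 7 of 102 cells, and VApcMinL 91.3 CPM (80.7 to 103), with a UMI in 67 of 453 cells, a ratio of 5.46 (3.07 to 10.7). After thinning each cell to 3000 UMIs the shares of cells with an Il6 UMI were 3.01% and 10.9%. Csf1 was higher there too, with 19.5 CPM (10.7 to 32.8) against 70.9 CPM (61.6 to 81.2), a ratio of 3.63 (2.11 to 6.75). Those were the 2 members with at least 50 UMIs in this cluster, and both were over 2-fold higher, where 5.7% of all 7264 genes compared in it were 2-fold apart either way. The summed level of the 8 general fibroblast markers in this cluster was 211 and 610.3 CPM, against 26042 to 34719 CPM in the Adamdec1 cluster. Leaving out the 33 VApcMinL cells with a Pdgfra UMI, the level was as large, with 91.9 CPM for Il6 and 73.3 CPM for Csf1. Over 12 other settings the ratios ranged from 2.90 to 8.88 for Il6 and from 2.15 to 9.08 for Csf1.

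Il11 (chr7:4772373-4782859), a gp130 cytokine known from fibrosis and tumour stroma, was a low transcript. Fibroblast-like cells had 277 UMIs in 142 cells of ApcMin and 530 UMIs in 235 cells of VApcMinL, that is 6.30 CPM (5.58 to 7.09) and 13.4 CPM (12.3 to 14.6). It was the single member of the 10 that lay at least 2-fold apart in all fibroblast-like cells, with a ratio of 2.13 (1.84 to 2.47). Among all 14100 genes compared there, 6.95% were 2-fold apart, so 1 gene of 10 is near that background. With doublets kept, the log2 ratio of Il11 was 0.15 in place of 1.09, and with the 10 richest cells left out 0.96. Il11 was 8.34 and 23.1 CPM in the Pi16 cluster (ratio 2.77, 2.27 to 3.40) and 2.39 and 7.32 CPM in the Lpl cluster (ratio 3.06, 1.85 to 5.17). With doublets kept, Il11 in the Pi16 cluster was 22.8 and 23.5 CPM, a ratio of 1.03. Over 12 other settings the ratio ranged from 1.02 to 3.17 in the Pi16 cluster and from 1.69 to 6.23 in the Lpl cluster. In the Grem1 and Adamdec1 clusters the ratios were 1.23 and 1.45, with intervals that included 1.

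A finer clustering, made with doublets left out, placed most of this difference in a small group of cells. Inside the Pi16 cluster it set apart 24 ApcMin and 118 VApcMinL cells, 1 of the latter from the Lpl cluster, that were led by Wif1 and Itgbl1. These were the only 2 of 10 listed markers of fibroblasts under the epithelium among the 20 leading genes of the cells. There Il11 had 0 UMIs in ApcMin, where 3 counts would be 8.26 CPM, and 192 UMIs from 43 cells in VApcMinL, 119 CPM (103 to 137). The level in VApcMinL was 14.4-fold that 3-count floor of the ApcMin library. This value leaves out the counting error of both libraries and is not a lower bound. The finer cluster was not read with doublets kept. In that setting Il11 in the whole Pi16 cluster of ApcMin was 22.8 CPM, in place of 8.34 CPM. In the finer cluster led by Pi16 itself, with 1124 and 742 cells, Il11 was at 8.71 and 8.89 CPM, a ratio of 1.02 (0.776 to 1.33). Over fibroblast-like cells without the Wif1 and Itgbl1 cells the ratio of Il11 was 1.40 (1.19 to 1.65).

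The cells that this cluster holds differ between the libraries in Wif1 itself. Wif1 had a UMI in 1 of the 24 ApcMin cells and in 89 of the 118 VApcMinL cells, whereas Itgbl1 was found in 22 of 24 and 92 of 118 cells and Ntrk2 was at 487 and 492 CPM. Bmp5, another listed marker, was found in 1 of 24 and 10 of 118 cells, and Pi16 in 16 of 24 and 36 of 118. Il11 was found in VApcMinL cells with a Wif1 UMI (32 of 89) and in those without (11 of 29). In the same cells Il6 was at 138 CPM (102 to 181) and 349 CPM (321 to 379.3), while Il33 was lower in VApcMinL, at 168 CPM (128 to 216) against 33.6 CPM (25.2 to 43.8). Csf1 was lower as well, at 135 and 61.5 CPM. Whether the 24 and the 118 cells are of the same kind was not tested.

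**Figure D3:**
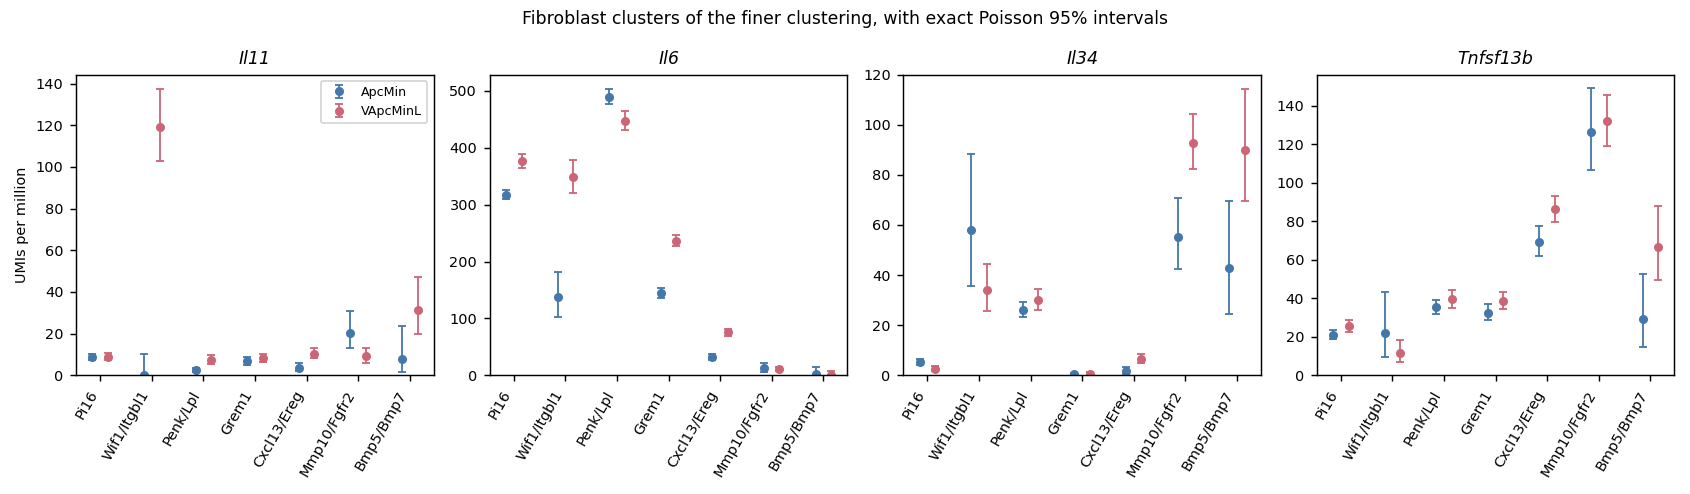
Level in CPM (vertical axis, from 0) of Il11, Il6, Il34 and Tnfsf13b in 7 fibroblast clusters of the finer clustering, named by leading genes, for ApcMin (blue) and VApcMinL (red), with exact 95% Poisson intervals. Il11 stands at 119 in the VApcMinL cells led by Wif1 and Itgbl1 and at 0 in the ApcMin cells of that cluster, and Il34 and Tnfsf13b are higher in the Mmp10 and Fgfr2 group than in the Cxcl13 and Ereg group. Doublets are left out in all panels.

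In the Bmp5 cluster Il11 had 3 and 22 UMIs, 8.05 CPM (1.66 to 23.5) and 31.4 CPM (19.7 to 47.5), and its intervals overlapped. The myeloid-like cluster of VApcMinL had 93 Il11 UMIs, 24.7 CPM, but they came from 2 cells, and without cells with an Epcam UMI the level was 1.17 CPM.

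Lif (chr11:4257557-4272514), the leukaemia inhibitory factor, had 331 and 259 UMIs in fibroblast-like cells, 7.53 CPM (6.74 to 8.38) and 6.55 CPM (5.78 to 7.40). Its levels were highest in the Pi16 cluster, at 10.5 and 9.27 CPM, and the Grem1 cluster, at 9.44 and 11.2 CPM, and these clusters overlapped within each library. The Adamdec1 and Lpl clusters were lower, at 4.998 and 3.63 CPM and at 3.64 and 1.68 CPM. The ratio over fibroblast-like cells was 0.870 (0.737 to 1.03), so a difference was not detectable at this depth.

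Il6, Il11 and Lif can be induced while tissue is taken apart, so the summed level of 14 genes known to respond to dissociation (among them Fos, Jun, Egr1, Atf3 and Hspa1a) is set beside them. In all fibroblast-like cells the sum was 21363 CPM in ApcMin and 23349.9 CPM in VApcMinL. It was 22221 and 25078 CPM in the Pi16 cluster, 25020.4 and 27678 CPM in the Lpl cluster, 24745 and 30127 CPM in the Grem1 cluster and 11547 and 15871 CPM in the Adamdec1 cluster, each higher in VApcMinL. In the Wif1 and Itgbl1 cells it was 21085 and 25255 CPM, and in blood endothelial-like cells 21449 and 23724 CPM. The highest sums were in glial-like cells (57445 and 46070.2 CPM) and mural-like cells (45375 and 34174 CPM), where Il11 and Lif were at or near 0 and Il6 was at 28.7 and 48.8 CPM (glial-like) and at 136 and 52.7 CPM (mural-like). The largest relative shift between the libraries among the stromal clusters was in lymphatic endothelial-like cells, from 2366 to 7074 CPM. The part of dissociation in the cytokine levels was not tested.

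**Figure D4:**
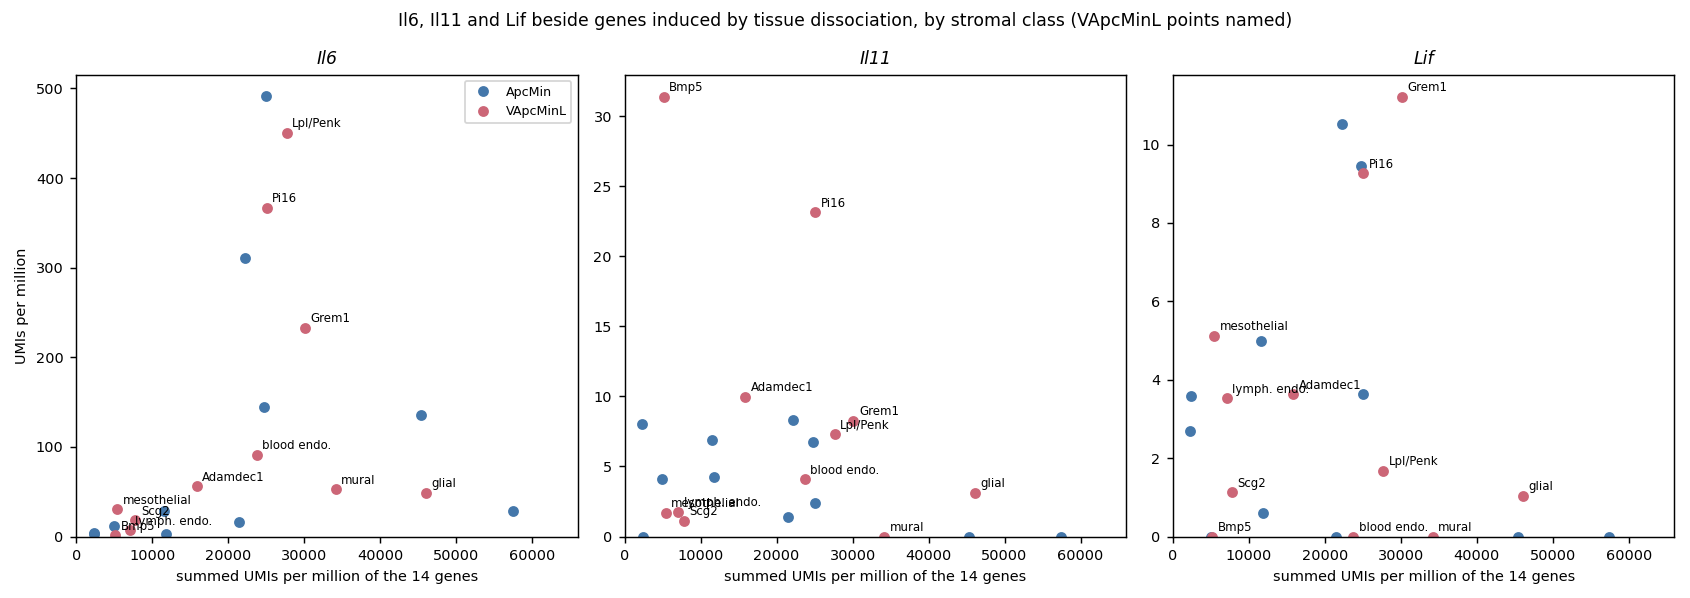
Level of Il6, Il11 and Lif (vertical axes, CPM) against the summed level of 14 dissociation genes (horizontal axes, CPM) in 11 stromal clusters of ApcMin (blue) and VApcMinL (red). Points of the highest horizontal values, the mural-like and glial-like clusters, have little Il11 and Lif, and the Lpl, Pi16 and Grem1 clusters differ in Il6 at sums between 22221 and 30127.

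The promoters of these 3 genes are shown because the Fos and Jun proteins, whose genes are on the dissociation list, bind the sequence TGANTCA. The sequences are the 200 bases from 250 to 51 bases before the transcription start in RefSeq (GRCm38.p6), written 5′ to 3′ on the strand of the gene, with each match in capitals. For Il6 the window is chr5:30012864-30013063 on the plus strand, for Il11 it is chr7:4778192-4778391 on the minus strand, upstream of an internal start, and for Lif it is chr11:4257318-4257517 on the plus strand.
Il6: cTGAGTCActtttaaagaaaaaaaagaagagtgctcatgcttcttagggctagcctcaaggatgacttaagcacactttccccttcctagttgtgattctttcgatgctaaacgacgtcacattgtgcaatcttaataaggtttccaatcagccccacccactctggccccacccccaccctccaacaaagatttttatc
Il11: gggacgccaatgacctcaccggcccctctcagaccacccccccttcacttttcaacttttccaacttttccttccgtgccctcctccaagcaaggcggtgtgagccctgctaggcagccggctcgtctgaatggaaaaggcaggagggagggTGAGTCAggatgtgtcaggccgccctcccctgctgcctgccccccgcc
Lif: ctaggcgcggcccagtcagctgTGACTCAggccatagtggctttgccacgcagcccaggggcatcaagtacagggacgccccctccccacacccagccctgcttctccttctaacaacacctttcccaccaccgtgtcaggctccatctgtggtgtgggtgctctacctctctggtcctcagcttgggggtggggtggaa
The motif, which reads the same on both strands, begins 249, 98 and 228 bases before the start in Il6, Il11 and Lif. The other Il11 window, upstream of the outer start at chr7:4782908-4783107, has 0 matches. Promoter windows were found for 6 of the 10 genes, 9 windows in all, and 4 of the 9 windows hold a match, the fourth being 1 of 2 windows of Tnfsf13b. Of all 32851 windows of this length, 1831 (5.57%) hold it. A match of letters is a description and not evidence of binding.

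Csf1 (chr3:107741048-107760469), the main growth factor of macrophages, had a UMI in 2563 of 3193 fibroblast-like cells (80.3%) and 2343 of 3564 (65.7%). These shares are not thinned, and the cells had medians of 13301 and 10531 UMIs. Levels were even across the large clusters: 201 and 144 CPM in the Lpl cluster, 192 and 136 CPM in the Pi16 cluster, 174 and 130.2 CPM in the Adamdec1 cluster and 150.0 and 123 CPM in the Grem1 cluster. Csf1 was lower in VApcMinL in each of these 4 clusters, with ratios of 0.716 (Lpl), 0.710 (Pi16), 0.750 (Adamdec1) and 0.819 (Grem1), and no interval reached 1. Over all fibroblast-like cells the level was 179 CPM (175 to 183) and 133 CPM (130 to 137), a ratio of 0.745 (0.720 to 0.772). The Bmp5 cluster had 110.0 CPM (78.9 to 149) and 226 CPM (192 to 264) from 29 and 70 cells, but this direction turned in 2 other settings, to a ratio of 0.897 at resolution 0.5 and of 0.716 with cells classed one by one from their markers. Mesothelial-like cells had 204 CPM (151 to 269) and 137 CPM (108 to 170.0), a ratio of 0.669 (0.464 to 0.973). Myeloid-like cells, which carry the receptor, had 25.5 and 18.6 CPM. Without cells with an Epcam UMI the direction turned, to 32.1 CPM (26.2 to 38.9) and 37.4 CPM (28.8 to 47.8), with intervals that overlapped. Those UMIs came from 25 and 14 cells.

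Il34 (chr8:110741829-110805924), the other CSF1R ligand, had an unlike distribution. It was highest in mural-like cells, at 97.3 CPM (59.4 to 150.2) and 127 CPM (91.2 to 172), and without cells with a Pdgfra UMI at 99.1 and 127 CPM. The Bmp5 cluster was highest instead where cells needed at least 5000 UMIs, or 4718 UMIs in ApcMin and 6255 in VApcMinL. The Bmp5 cluster had 42.9 CPM (24.5 to 69.7) and 94.2 CPM (72.9 to 119.8), and glial-like cells 43.0 CPM (15.8 to 93.7) and 49.8 CPM (36.7 to 66.1). Of the large fibroblast clusters, Lpl had 26.3 and 30.5 CPM, Adamdec1 12.1 and 31.0 CPM and Pi16 6.34 and 6.81 CPM, while the Grem1 cluster was at 0.388 and 0.473 CPM. Lymphatic endothelial-like cells had 0 UMIs in both libraries. Thus the Grem1 cluster, where Csf1 was at 150.0 and 123 CPM, was nearly without Il34, and in mural-like cells, with 97.3 and 127 CPM of Il34, Csf1 was at 29.2 and 37.2 CPM.

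The Adamdec1 cluster held the largest Il34 difference among the large fibroblast clusters. The level was 12.1 CPM (9.41 to 15.2) in ApcMin and 31.0 CPM (27.8 to 34.5) in VApcMinL, a ratio of 2.57 (1.98 to 3.38), with a UMI in 38 of 466 and 174 of 1121 cells. The Pi16 and Lpl ratios were 1.07 and 1.16, with intervals that included 1. In the finer clustering the Adamdec1 cells split into a group led by Mmp10 and Fgfr2, with 98 and 302 cells, and a group led by Cxcl13 and Ereg, with 365 and 799 cells. Il34 lay mainly in the former, at 55.2 CPM (42.3 to 70.8) and 92.7 CPM (82.2 to 104), and was at 1.72 and 6.57 CPM in the latter. Il34 was higher in VApcMinL in both groups, with ratios of 1.68 (1.27 to 2.25) and 3.81 (1.79 to 9.32), the second from 8 and 49 UMIs. Over 12 other settings the ratio in the whole Adamdec1 cluster stayed between 2.22 and 3.01.

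Tnfsf13b (chr8:10006467-10039072), which encodes the B cell survival factor BAFF, was highest in the same Adamdec1 cluster. The level was 80.0 CPM (72.9 to 87.6) and 99.04 CPM (93.2 to 105), with a UMI in 246 of 466 and 574 of 1121 cells. Lpl and Grem1 cells had 35.3 and 39.8 CPM and 32.6 and 38.6 CPM, Pi16 cells 21.0 and 23.0 CPM, and the Scg2 cluster 1.82 and 5.63 CPM. In the Mmp10 and Fgfr2 group the level was 126 and 132 CPM, and in the Cxcl13 and Ereg group 69.3 and 86.2 CPM. Of Adamdec1 cells with a Tnfsf13b UMI, 10.2% and 21.8% also had an Il34 UMI, against 5.91% and 8.96% of the others, which were shallower (a median of 11198 against 12694 UMIs in ApcMin and 8096 against 10266 in VApcMinL). Myeloid-like cells, a known source of BAFF, had 19.1 and 14.1 CPM.

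In fibroblast-like cells together, Tnfsf13b had a level of 33.6 CPM (31.9 to 35.4) against 50.2 CPM (48.1 to 52.5), a ratio of 1.495 (1.40 to 1.60). Within each of the 4 large clusters the ratio of Tnfsf13b was smaller, between 1.10 and 1.24. The Adamdec1 cluster made up 14.6% of fibroblast-like cells in ApcMin and 31.5% in VApcMinL. With the clusters of both libraries weighted by their share of ApcMin UMIs, the ratio of Tnfsf13b was 1.18 and that of Il34 was 1.36, against 1.55 unweighted. With cells classed one by one from their markers in place of clusters, the log2 ratio of Il34 over fibroblast-like cells was -0.14 in place of 0.64. The same weighting turned Il6 from 0.928 to 1.12 and left Csf1 at 0.746 and Il11 at 2.27.

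Tslp, whose product acts on dendritic cells and innate lymphoid cells, marked the Lpl cluster. The level there was 82.1 CPM (76.7 to 87.8) and 99.4 CPM (91.9 to 107), with a UMI in 422 of 862 and 314 of 692 cells. Scg2 cells followed with 26.1 and 33.8 CPM, Grem1 cells with 16.4 and 34.5 CPM, Pi16 cells with 13.1 and 16.2 CPM and Adamdec1 cells with 7.41 and 11.6 CPM. The Grem1 cluster had the largest Tslp difference, from 16.4 CPM (13.7 to 19.5) to 34.5 CPM (30.7 to 38.7), a ratio just over 2, with an interval of 1.70 to 2.61. The ratio was between 1.48 and 2.14 over 12 other settings and past 2-fold in 8 of them. In the Lpl cluster the genes Il6 and Tslp were found together in 232 and 139 cells. Of cells with an Il6 UMI 56.0% and 50.7% had a Tslp UMI, against 42.4% and 41.9% of the others. The former were deeper, with medians of 13048 and 9842 UMIs against 11261 and 8934, and a part of depth in this was not tested.

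Il15 (chr8:82331632-82403222), which supports NK cells and CD8 T cells, was low and widespread. Epithelial-like cells had 25.3 CPM (16.9 to 36.3) and 24.7 CPM (21.9 to 27.7). Blood endothelial-like cells had 12.6 and 11.6 CPM, glial-like cells 21.5 and 10.4 CPM from 3 and 10 UMIs, and the fibroblast clusters 2.68 to 11.1 CPM. In myeloid-like cells it was 10.5 and 5.32 CPM, a ratio of 0.505 (0.284 to 0.866). Without cells with an Epcam UMI it was 13.9 CPM (10.1 to 18.6) and 10.5 CPM (6.24 to 16.6), with intervals that overlapped. The fibroblast-wide ratio of 0.886 (0.756 to 1.04) did not differ from 1 beyond counting error.

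Compared over all fibroblast-like cells, 8 of the 10 ratios had an interval without 1, as did 12 of the 14 dissociation genes and 8 of 14 receptor genes. The share of all genes with such an interval was not computed, so the count is not read as particular to these genes. Il33, Il11, Il34, Tslp and Tnfsf13b were above 1, and Il6, Csf1 and Il7 below. Il33 (1.11, 1.07 to 1.14) and Tslp (1.10, 1.02 to 1.19) lay within 1.2-fold of 1, and Il7 was at 0.729 (0.591 to 0.897). The median log2 ratio of the 10 genes was 0.02, and that of all 14100 genes was 0.03. Past 2-fold were 1 of 10 genes in the Pi16 cluster (Il11), where 6.75% of all genes were past it, 1 of 9 in the Lpl cluster (Il11), against 2.74%, and 1 of 8 in the Grem1 cluster (Tslp), against 2.17%. In the Adamdec1 cluster 2 of 10 were past it, Il34 upward and Il7 downward (5.34 and 2.14 CPM from 31 and 23 UMIs, ratio 0.401, 0.223 to 0.711), against 3.97% of all genes. The direction of Il7 turned after thinning to 3000 UMIs, to 2.15 and 3.27 CPM (ratio 1.52), and without the 10 richest cells the ratio was 0.673. The thinning was a single random draw that kept only some of those 31 and 23 UMIs, so its ratio is imprecise. In the small Bmp5 cluster all 4 genes with enough UMIs were over 2-fold higher in VApcMinL, with Il33 at 2.63 (1.52 to 4.82), Tnfsf13b at 2.37, Il34 at 2.19 and Csf1 at 2.05, where 13.5% of all genes were past 2-fold. That cluster has 29 ApcMin cells, and over 11 other settings these ratios were past 2-fold in 7 (Il33), 9 (Tnfsf13b), 8 (Il34) and 5 (Csf1). At resolution 0.5, where the Wif1 and Itgbl1 cells take the same name, Il33 turned to 0.542 and Csf1 to 0.897, with Il34 at 1.03 and Tnfsf13b at 1.12. With cells classed one by one Csf1 was at 0.716, Il34 at 0.991, and Il33 and Tnfsf13b at 1.21. Its dissociation genes were at 2299 and 5160 CPM.

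**Figure D5:**
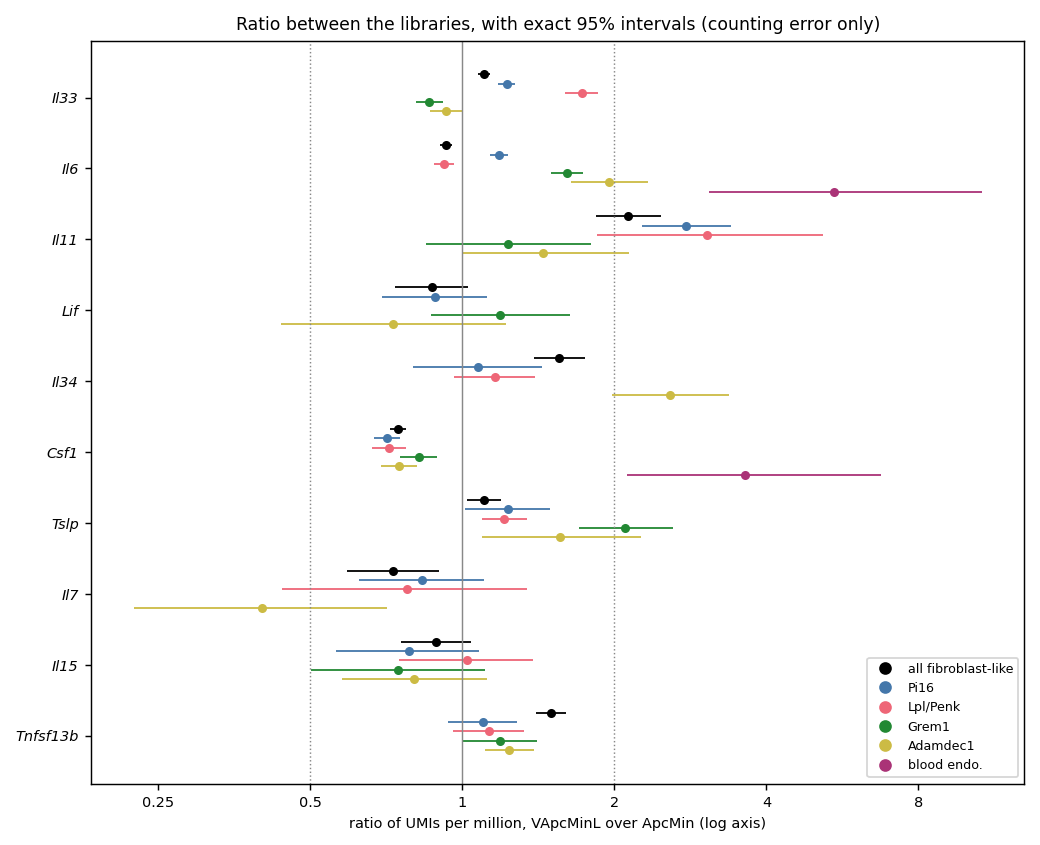
Ratio of CPM, VApcMinL over ApcMin (horizontal log axis), with exact 95% intervals, for each gene with at least 50 UMIs in all fibroblast-like cells (black), the 4 large fibroblast clusters and blood endothelial-like cells (colours). Csf1 lies left of 1 in the 4 large fibroblast clusters, Tnfsf13b in the single clusters lies left of its fibroblast-wide ratio of 1.495, and dotted lines mark 2-fold.

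The receptors of these cytokines were read in the same cells. Csf1r, the receptor of CSF1 and IL-34, was at 712 and 546 CPM in myeloid-like cells, and Ptprz1, a further IL-34 receptor, at 624 and 527 CPM in glial-like cells. Il7r was at 598 and 1002 CPM and Il2rb, a chain of the IL-15 receptor, at 332 and 401 CPM in T or innate lymphoid-like cells. The BAFF receptor gene Tnfrsf13c was at 229.7 and 218 CPM in B-like cells, and Tnfrsf17 at 138 and 144 CPM in plasma-like cells. Il1rl1, which encodes ST2, was at 250.02 and 63.9 CPM in T or innate lymphoid-like cells and at 260.3 and 161 CPM in the Bmp5 fibroblast cluster. Of the gp130 family receptors, Lifr and Il11ra1 were highest in the Lpl cluster, at 344 and 494 CPM and at 365 and 333 CPM. The chains of the IL-6 receptor were highest elsewhere, Il6ra in the Bmp5 cluster at 123 and 239.8 CPM and Il6st, which encodes gp130, in mesothelial-like cells at 886 and 580.4 CPM. Osmr was highest in blood endothelial-like cells, at 223 and 299.9 CPM. Of 18 receptor genes, 14 had at least 50 UMIs in fibroblast-like cells, and 0 of them were 2-fold apart between the libraries. Of 27 other cytokine genes looked at, 12 had as many, and 1 was 2-fold higher in VApcMinL. By the mean of the libraries, Kitl (1277 CPM in the Scg2 cluster) and Flt3l (41.3 CPM in the Adamdec1 cluster) were highest in fibroblast clusters. So were Il6, Il11, Lif, Csf1, Tslp and Tnfsf13b, but not Il33, Il7, Il34 and Il15. Il1b (738 CPM) was highest in myeloid-like cells.

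The pattern of each gene across the 18 clusters was compared with 11311 other genes, by Pearson's r of log2(CPM + 1) on the mean of the libraries. This is a description over 18 clusters that share their libraries. The most alike were Cxcl1 for Il6 (r = 0.94), Tbx2 for Il34 (0.95), Crtap for Csf1 (0.97), Nav3 for Tslp (0.94), Sema3a for Il7 (0.93), Ptgfrn for Il33 (0.90), Saa3 for Tnfsf13b (0.89), Tmem205 for Il15 (0.88), Mmp19 for Il11 (0.87) and Sulf2 for Lif (0.85). Among the 10 genes themselves, Il11 and Tnfsf13b (0.83) and Il33 and Lif (0.82) were most alike, and Lif and Il34 (-0.06) least.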

How the data were processed

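Per the labels, the authors aligned 10x Genomics 3′ v3 reads to mm10 with Cell Ranger (2.1.1 in the labels, 3.1.0 in the matrix header) and deposited unfiltered matrices of raw UMI counts per gene and barcode. Barcodes with at least 3000 UMIs and at most 20% mitochondrial UMIs were kept. Scrublet (scanpy 1.11.5) scored doublets. Its own threshold marked 0 and 1 barcodes as doublets. The highest scores were instead left out at a fixed rate of 0.8% per 1000 barcodes (348 and 345 barcodes). Cells were integrated and clustered in Seurat 5.3.0 (R 4.3.3; 20 components, 20 neighbours, resolution 0.2, finer 0.5), without the 10 genes, their 18 receptors and 28 other cytokines (27 measured). Clusters were named here from marker lists and may differ from the study's. A gene was compared between libraries with at least 50 UMIs in the cluster. All 10 genes were named in every cluster, and for each the genes most alike in pattern. The members, the lists and the naming of clusters were chosen with earlier results of these data known. Scripts were tested on simulated counts, with scipy 1.17.1 and Python 3.11.15. With 1 library per genotype no p-value was computed.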

Additional observations from a re-analysis of the deposited data

Results flagged for a closer look

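For 3 genes the libraries differed in opposite directions in 2 clusters, with each interval on its own side of 1. The difference between clusters was not tested, since each genotype has 1 library. Il33 was higher in VApcMinL in the Bmp5 cluster (ratio 2.63) and lower in lymphatic endothelial-like cells (0.821), but the Bmp5 ratio was 0.542 at resolution 0.5, so that both lay below 1 there, and 1.21 with cells classed one by one from their markers. Il6 was higher in blood endothelial-like cells (5.46) and lower in the Lpl cluster (0.918). Csf1 was higher in blood endothelial-like cells (3.63) and lower in mesothelial-like cells (0.669), which in ApcMin were 7 cells with 50 Csf1 UMIs. Over all fibroblast-like cells Csf1 was lower as well (0.745).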

How the results depend on the processing

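Il11 was the 1 gene at least 2-fold apart in all fibroblast-like cells. The number of such genes was 0 with no doublets left out, with cells classed one by one from their markers, with the mean over cells and with the 10 cells with most UMIs left out, and 2 at 1.5-fold. Over the 4 large fibroblast clusters, 5 pairs of gene and cluster were 2-fold apart, against 3 after thinning to 3000 UMIs, 3 without the 10 cells and 9 at 1.5-fold. Of all genes, 6.95% were 2-fold apart in fibroblast-like cells, 3.37% among genes with at least 200 UMIs and 16.0% at 1.5-fold. The log2 ratio of Il34 turned from 0.64 to -0.14 with that classing of single cells, and the ratio of Il6 from 0.928 to 1.12 at the ApcMin mix of clusters, a setting chosen after seeing the data, as were leaving out cells with a Pdgfra or Epcam UMI and the Wif1 and Itgbl1 cells. The causes were not tested. Of 120 log2 ratios over 12 settings, 104 moved by less than their counting error, 15 by more, and 1 changed sign beyond it. The highest cluster of Il33, Tslp, Il7 and Tnfsf13b was the same in all 12. Lif and Il15 also changed sign in 1 setting each. Precision is low in the mural-like, glial-like, lymphatic endothelial-like, mesothelial-like, epithelial-like, pancreatic acinar-like and Bmp5 clusters, which have 7 to 35 cells in ApcMin. No paired analysis was possible because 1 library stands for each genotype.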
